A study of Mus musculus with 12 samples.

Results

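Mitochondrial ribosomal proteins, the nuclear-encoded protein subunits of the ribosome inside mitochondria, were followed in cultured mouse proximal tubule (PT) cells with and without TGF-β receptor type II (TβRII, encoded by Tgfbr2). Members were all protein-coding genes whose symbol is Mrpl or Mrps followed by a number, and each gene was represented by its transcript with the most counts over all libraries. The rule found 78 members among 25514 genes with counts, of which 49 carry a large subunit (Mrpl) and 29 a small subunit (Mrps) symbol. All 78 were abundant enough to be tested among 12970 genes, with 66 to 2697 counts per member and library.

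The 12 libraries came from 4 groups of 3. TβRII flox/flox PT cells (H2ts6;Tgfbr2fl/fl) and TβRII-/- PT cells (H2ts6;Tgfbr2-/-) were each left untreated or given H2O2 in serum-free medium for 24 h. Both lines derive from male Immorto-mouse crosses, which carry a temperature-sensitive large T antigen that lets the cells grow at a permissive temperature, and both were moved to 37 °C before use. The knockout was made in culture by adenoviral Cre. Each genotype is therefore 1 cell line, so that an effect of the deletion cannot be told apart from a difference of line. The untreated cells stayed in normal culture medium, so that H2O2 and serum withdrawal cannot be told apart either.

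The gene totals ranged from 15870158 to 20857618 counts per library. Tgfbr2 was at 436 to 533 CPM (TMM-normalized counts scaled to a common library size) in untreated flox/flox and 366 to 391 in untreated -/- cells, and at 765 to 802 and 410 to 421 with H2O2, whereby a count over the whole transcript does not show the loss of a part of it. Of 12 PT markers, Lrp2 and Aqp1 were high in every group while 6 (Slc34a1, Slc22a6, Slc22a12, Hnf4a, Slc27a2 and Amn) had at most 3 counts in any library. The summed level of the PT list was 1270 to 1610 CPM in untreated flox/flox, 867 to 926 in untreated -/-, 1780 to 1940 in flox/flox with H2O2 and 914 to 993 in -/- with H2O2. The fibroblast and smooth muscle list of 6, led by Acta2 (means of 27, 144, 10.3 and 36.7 CPM), summed to 29.9 to 31.7, 136 to 152, 14.3 to 16 and 35.5 to 43 CPM in these groups, with Col3a1 at no more than 3 counts. Acta2 made up most of these sums. Of the 3 genes of this list that were tested, 1 rose and 2 fell in -/- cells in each genotype comparison. Col1a1 (means of 2.42, 0.825, 3.29 and 1.25 CPM) and Pdgfrb (0.937, 0.139, 1.22 and 0.16 CPM) were the lower ones. The endothelial list of 5 summed to 7.25 to 8.18, 27.1 to 33.8, 1.37 to 1.59 and 2.36 to 3.95 CPM, and the leukocyte list of 6 to 8 to 8.46, 13.6 to 14.6, 8.19 to 8.87 and 12.9 to 16.2 CPM. Most of the endothelial sums was Kdr (means of 7.42, 29.2, 1.24 and 2.77 CPM). Most of the leukocyte sums was Cd68 (7.86, 13.5, 8.09 and 14.3 CPM). Pecam1 had at most 1 count, and Emcn, Adgre1 and Cd3e at most 3, in any library. Of 6 distal nephron markers 5 had at most 3 counts in any library. The part of these differences in the results was not tested. Replicate 1 of untreated flox/flox cells stood apart from its group in the summed level of the members and of cytosolic ribosomal proteins (given below). The counts of members called between the untreated genotypes and with H2O2 in flox/flox cells are given with and without it. Overlaps of calls between comparisons, the other gene lists and the neighbouring genes are given with it only.

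The mitochondrial ribosome (mitoribosome) translates the few mRNAs of the mitochondrial genome, which encode core subunits of the respiratory chain and of the ATP synthase. Its RNAs are made in the mitochondrion, but its proteins are encoded in the nucleus, made in the cytosol and imported. The small subunit reads the mRNA and holds the decoding site, while the large subunit joins amino acids and releases the chain at an exit close to the inner membrane. PT cells depend on oxidative phosphorylation for solute reabsorption and are rich in mitochondria.

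The promoters of the members on which the results below turn are shown first, since the members lie on 17 chromosomes and share no common location. Sequences are from RefSeq (GRCm38.p6), run 5′ to 3′ on the strand of the gene from 250 bases before to 50 bases after its start, and were found for 69 of the 78 members. Capitals mark the cores of motifs of NRF1 (CGCANGCG) and of Ets factors (CCGGAAG), or of YY1 (AAGATGG), searched on both strands. Mrpl33 had the largest difference between the lines, Mrpl43 and Mrpl12, the protein of the large subunit stalk, are 2 of the 8 members that passed the test in all 4 comparisons between groups, and the Mrps11 window also holds the start of Mrpl46, the member with the largest fall in H2O2-treated flox/flox cells. The 8 members (10.3%) rose in both genotype comparisons and fell in both H2O2 comparisons, as did 4.05% of all genes tested. The capital runs shown do not overlap each other.
Mrpl33, chr5:31613701-31614000, plus strand: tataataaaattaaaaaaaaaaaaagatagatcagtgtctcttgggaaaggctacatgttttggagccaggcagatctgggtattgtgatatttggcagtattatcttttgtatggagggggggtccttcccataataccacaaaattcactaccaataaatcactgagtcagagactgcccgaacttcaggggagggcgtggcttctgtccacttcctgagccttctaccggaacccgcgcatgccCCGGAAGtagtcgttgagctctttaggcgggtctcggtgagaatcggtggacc
Mrpl43, chr19:45006393-45006692, minus strand: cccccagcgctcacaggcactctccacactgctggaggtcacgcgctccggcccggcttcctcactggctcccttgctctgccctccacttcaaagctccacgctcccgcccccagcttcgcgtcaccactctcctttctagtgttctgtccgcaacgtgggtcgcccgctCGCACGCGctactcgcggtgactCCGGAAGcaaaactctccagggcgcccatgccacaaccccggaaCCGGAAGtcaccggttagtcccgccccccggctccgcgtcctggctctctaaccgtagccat
Mrpl12, chr11:120484387-120484686, plus strand: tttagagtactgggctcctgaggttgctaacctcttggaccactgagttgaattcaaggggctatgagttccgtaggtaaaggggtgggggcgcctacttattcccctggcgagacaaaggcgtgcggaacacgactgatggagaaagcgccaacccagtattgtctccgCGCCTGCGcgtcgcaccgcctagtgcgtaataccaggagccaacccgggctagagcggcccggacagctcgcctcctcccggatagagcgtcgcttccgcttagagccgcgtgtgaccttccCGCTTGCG
Mrps11, chr7:78782881-78783180, plus strand: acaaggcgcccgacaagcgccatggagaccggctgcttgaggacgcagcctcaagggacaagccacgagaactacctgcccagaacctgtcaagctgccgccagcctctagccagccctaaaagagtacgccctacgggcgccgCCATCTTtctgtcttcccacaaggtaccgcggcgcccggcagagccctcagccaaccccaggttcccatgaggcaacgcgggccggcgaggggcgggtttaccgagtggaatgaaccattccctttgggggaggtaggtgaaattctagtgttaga

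NRF1 and Ets family factors are known regulators of nuclear genes for mitochondrial proteins. The NRF1 core was in 20 of the 69 member promoters (29%), against 17.7% of 9730 promoters of genes tested and 8.4% of all 27025 promoters. The Ets core was in 36.2% of member promoters, against 18.5% and 9.1%. The YY1 core was in 18.8%, against 7.4% and 6.5%. In 66 promoters of cytosolic ribosomal proteins the Ets core was about as frequent as in the members (36.4%). The NRF1 core was in 19.7% and the YY1 core in 13.6% of these 66. A CCAAT box was in 39.1% of member promoters and 39.0% of those of genes tested, and an E-box (CACGTG) in 7.2% and 10.2%. TATAAA was in 5.8% and 6.6%. By subunit, the NRF1 core was in 32.6% of 43 large and 23.1% of 26 small subunit promoters, whereas the Ets core was in 32.6% and 42.3%. Of the 31 promoters of members that fell with H2O2 in flox/flox cells (below), 32.3% held the NRF1 core and 41.9% the Ets core, and of the other 38 promoters 26.3% and 31.6%.

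At the level of the whole set, mitoribosomal mRNA was highest in untreated -/- cells and lowest in flox/flox cells with H2O2. The summed level of the 49 large subunit mRNAs was 1522.4, 1680.1 and 1668.5 CPM in the 3 libraries of untreated flox/flox cells and 1809.4, 1825 and 1752.3 CPM in those of untreated -/- cells. With H2O2 it was 1481.4, 1380.6 and 1407.1 CPM in flox/flox cells and 1604.3, 1616 and 1564.8 CPM in -/- cells. The 4 groups did not overlap in this sum except for untreated flox/flox and H2O2-treated -/- cells. The 29 small subunit mRNAs summed to 764.09, 848.87 and 850.51 CPM in untreated flox/flox cells and to 890.95, 895.61 and 874.74 CPM in untreated -/- cells. With H2O2 they summed to 770.03, 738.73 and 743.27 CPM in flox/flox cells and to 823.87, 833.96 and 825.25 CPM in -/- cells. Here replicate 1 of untreated flox/flox cells lay within the range of the H2O2-treated flox/flox libraries. The same library was the lowest of its group in cytosolic ribosomal protein mRNA, with 16878 CPM against 19107 and 19821 CPM. The ratio of the large to the small subunit sum was 1.978 ± 0.015 (SD, n = 3) in untreated flox/flox, 2.024 ± 0.0185 in untreated -/-, 1.895 ± 0.0276 in H2O2-treated flox/flox and 1.927 ± 0.0272 in H2O2-treated -/- cells, so that untreated and treated libraries of a genotype did not overlap in the ratio.

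**Figure D1:**
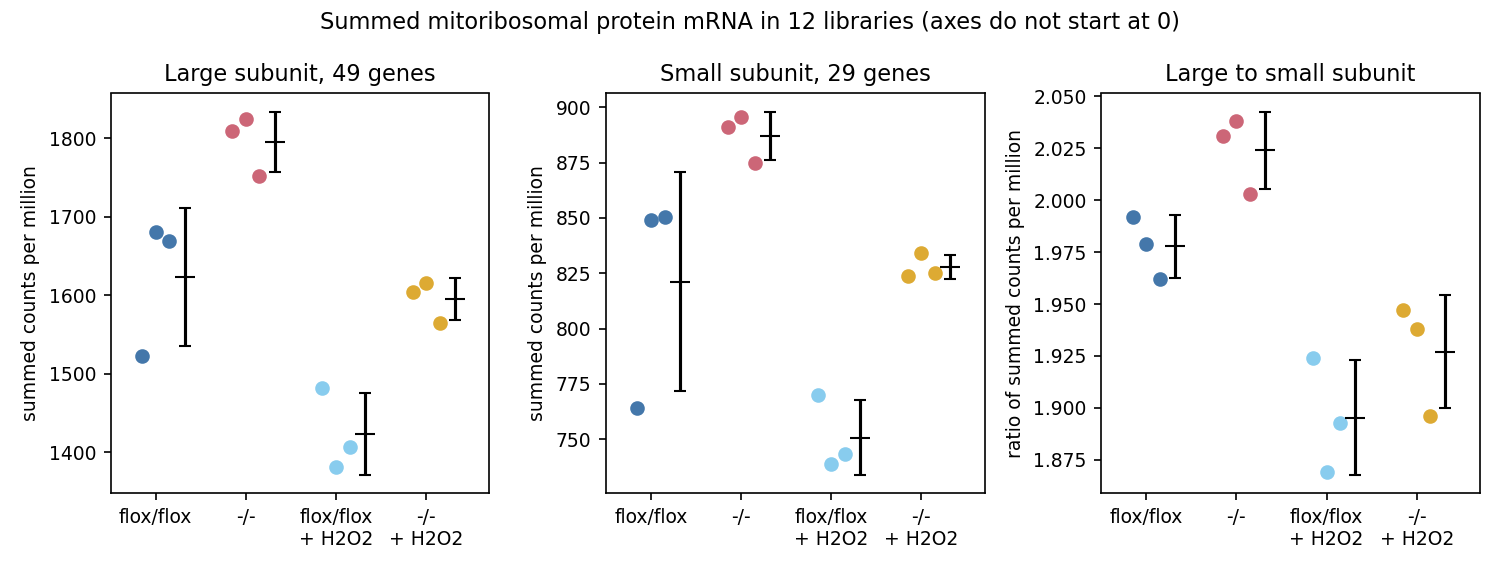
Summed TMM-normalized CPM of the large subunit (left) and small subunit members (middle) and their ratio (right) in each of 12 libraries. Points are libraries, black marks are the mean and SD of 3. The large subunit sums of untreated -/- cells (1752.3 to 1825 CPM) lie above all other libraries, and the ratio is lower with H2O2 in both genotypes.

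The first question was how the members differed between the genotypes without treatment. More members were higher than lower in -/- cells: 26 rose and 4 fell (edgeR quasi-likelihood test, Benjamini-Hochberg adjusted p under 0.05 over 12970 genes). Of all genes tested, 33.3% rose and 31.4% fell, so that the share of members that rose was at the background (33.3%) and the share that fell was 5.13%. Of the large subunit 17 of 49 rose and 3 fell, and of the small subunit 9 of 29 rose and 1 fell. The median log2 fold change of the members was 0.086 (large 0.098, small 0.076), against 0.008 over all genes tested. Without replicate 1 of untreated flox/flox cells, 20 rose, 10 fell and the median was 0.019. The groups did not overlap, with -/- higher, for 24 members and for 33.7% of all genes. At the limits used in the study, an unadjusted p under 0.01 and a fold change of at least 1.5, 5 members changed, against 27.0% of all genes.

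Mrpl33, the counterpart of a small bacterial protein of the large subunit (bL33), had the largest difference of all members. It was at 16.07, 16.48 and 15.62 CPM in untreated flox/flox cells and at 40.02, 39.39 and 38.51 CPM in untreated -/- cells, a 2.45-fold rise (log2 1.29 ± 0.08 SE, edgeR adjusted p = 2.07e-15). With H2O2 it was at 14.68, 13.57 and 16.64 CPM in flox/flox cells and at 28.09, 29.63 and 30.61 CPM in -/- cells. All -/- libraries were above all flox/flox libraries. The transcript that represents it is annotated as a retained intron, and its coding transcript gave a like difference of log2 1.454 between mean CPM scaled to the library total alone, against 1.358 for the representative transcript on that scale.

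Mrps18c, Mrpl1 and Mrpl43 were the other members that rose past 1.5-fold. Mrps18c, one of 3 mammalian versions of the bacterial S18 protein and the one in the small subunit at its usual site, was at 11.16, 12.25 and 14.25 CPM in untreated flox/flox and at 19.04, 22.76 and 19.58 CPM in untreated -/- cells (log2 0.71 ± 0.10, edgeR adjusted p = 3.05e-07). Mrpl1, the protein of the mobile L1 stalk, was at 14.37, 14.17 and 17.97 CPM against 25.13, 26.5 and 23.28 CPM (log2 0.69 ± 0.09, edgeR adjusted p = 1.23e-07). Mrpl43, a large subunit protein without a bacterial counterpart, was at 44.08, 51.24 and 47.54 CPM against 74.91, 74.49 and 69.62 CPM (log2 0.62 ± 0.07, edgeR adjusted p = 2.04e-09). The 2 genotypes did not overlap in any of the 3 genes, and these calls held under every alternative tried. Mrps18c overlaps Gm43511 on its own strand (1142 counts over all libraries, against 3428 for Mrps18c). On the other strand it overlaps Abraxas1 and Helq. Mrpl43 overlaps Twnk on the other strand (9603 counts, against 11829). Reads could thus be shared, which no alternative addressed.

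**Figure D2:**
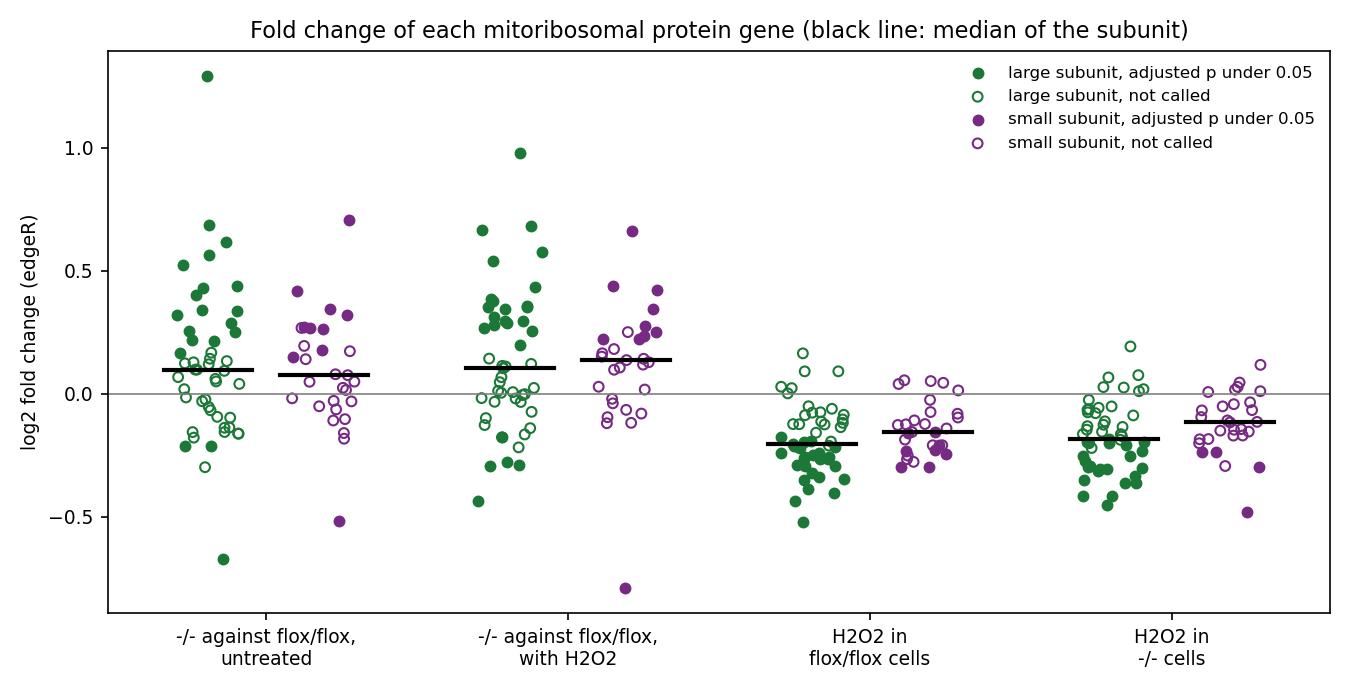
Log2 fold change of each of the 78 members in the 4 comparisons between groups, by subunit. Filled points passed adjusted p under 0.05, open points did not, and black lines are medians. In both H2O2 comparisons no filled point lies above 0, whereas the genotype comparisons have filled points on both sides, with Mrpl33 highest (1.29 and 0.98).

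The falls in untreated -/- cells were few. Mrpl36, the counterpart of bL36, was at 12.61, 14.94 and 15 CPM in flox/flox and at 9.342, 8.648 and 8.717 CPM in -/- cells (log2 -0.67 ± 0.11, edgeR adjusted p = 5.87e-06), with no overlap of the groups. Mrps24, the counterpart of the bacterial S3 protein at the mRNA entry, was at 10.55, 14.88 and 15.12 CPM in flox/flox and at 12.96, 8.313 and 7.172 CPM in -/- cells (log2 -0.52 ± 0.16, edgeR adjusted p = 0.00653). Its groups overlapped, and the call was lost with DESeq2 (adjusted p = 0.0734) and without replicate 3 of untreated -/- cells (adjusted p = 0.0754, edgeR). Mrpl9 (bL9) and the mitochondria-specific Mrpl37 fell by 0.21 on the log2 scale each (edgeR adjusted p = 0.00458 and 0.0085). The call of Mrpl37 was lost without replicate 1 of untreated flox/flox cells (edgeR adjusted p = 0.0768).

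The same comparison among H2O2-treated cells uses none of these 6 libraries. In it 29 members rose and 6 fell in -/- cells, against 35.1% and 31.3% of all genes, so that the share that rose (37.2%) was near the background and the share that fell (7.69%) below it. Of the large subunit 20 rose and 5 fell, and of the small subunit 9 rose and 1 fell. The median was 0.116 (large 0.104, small 0.137), against 0.018 over all genes. Untreated flox/flox cells are not among the libraries compared but are part of the same fit. Without their replicate 1 there were 10 falls. Without replicate 1, 2 or 3 of that group, 9, 8 and 8 large subunit members fell, with 1 small subunit fall each. The median over all genes was then -0.013, -0.0135 and -0.0134. Leaving out H2O2-treated -/- replicate 3 gave 3 falls. The groups did not overlap, with -/- higher, for 32 members and 37.3% of all genes. At the limits of the study 5 members changed, against 29.8% of all genes.

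Mrpl33 (log2 0.98 ± 0.08, edgeR adjusted p = 3.54e-12), Mrpl1 (0.68), Mrpl43 (0.66) and Mrps18c (0.66) again led the rises. Mrpl43 was at 43.09, 41.01 and 36.39 CPM in flox/flox and at 64.69, 63.53 and 63.1 CPM in -/- cells with H2O2. Mrps24 was the largest fall, from 12.28, 10.42 and 12.35 CPM in flox/flox to 5.054, 7.25 and 7.967 CPM in -/- cells (log2 -0.79 ± 0.17, edgeR adjusted p = 0.000168), here without overlap. Mrpl3, the counterpart of the bacterial L3 protein near the peptidyl transferase centre, was at 32.16, 30.89 and 33.88 CPM against 25.85, 26.05 and 27.45 CPM (log2 -0.29 ± 0.08, edgeR adjusted p = 0.00114). Mrpl4, a protein of the exit tunnel, had a log2 fold change of -0.29, which was lost with counts summed over transcripts (edgeR adjusted p = 0.0816). Mrpl23, at the tunnel exit and one of the least abundant members, had a log2 fold change of -0.44 (edgeR adjusted p = 0.0364). That call was lost without H2O2-treated flox/flox replicates 1 and 2 (adjusted p = 0.203 and 0.0683, edgeR), without H2O2-treated -/- replicates 2 and 3 (0.195 and 0.0875) and with counts summed over transcripts (0.193). Mrpl36, which fell in untreated -/- cells, was at 10.47, 10.71 and 11.36 CPM in flox/flox and 10.48, 8.02 and 9.571 CPM in -/- cells with H2O2 (edgeR adjusted p = 0.0977).

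Across the 2 genotype comparisons, 23 members rose in both and 1 (Mrps24) fell in both, and none rose in one and fell in the other. Of all genes tested, 28.3% rose in both and 24.8% fell in both, against 29.5% and 1.28% of the members. Of the members that rose untreated 3 (Mrpl52, Mrps26 and Mrps6) did not pass with H2O2, and 6 rose only with H2O2, against 4.98% and 6.78% of all genes. The call of Mrps6 without treatment (log2 0.15, edgeR adjusted p = 0.0348) was lost without replicate 1 of untreated flox/flox cells (0.0949, adjusted p = 0.219, edgeR), without replicates 1 or 2 of untreated -/- cells (adjusted p = 0.105 and 0.103, edgeR), with no filter on low counts (0.0729) and with the compared groups alone (0.0671). These comparisons use different libraries of the same 2 lines.

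**Figure D3:**
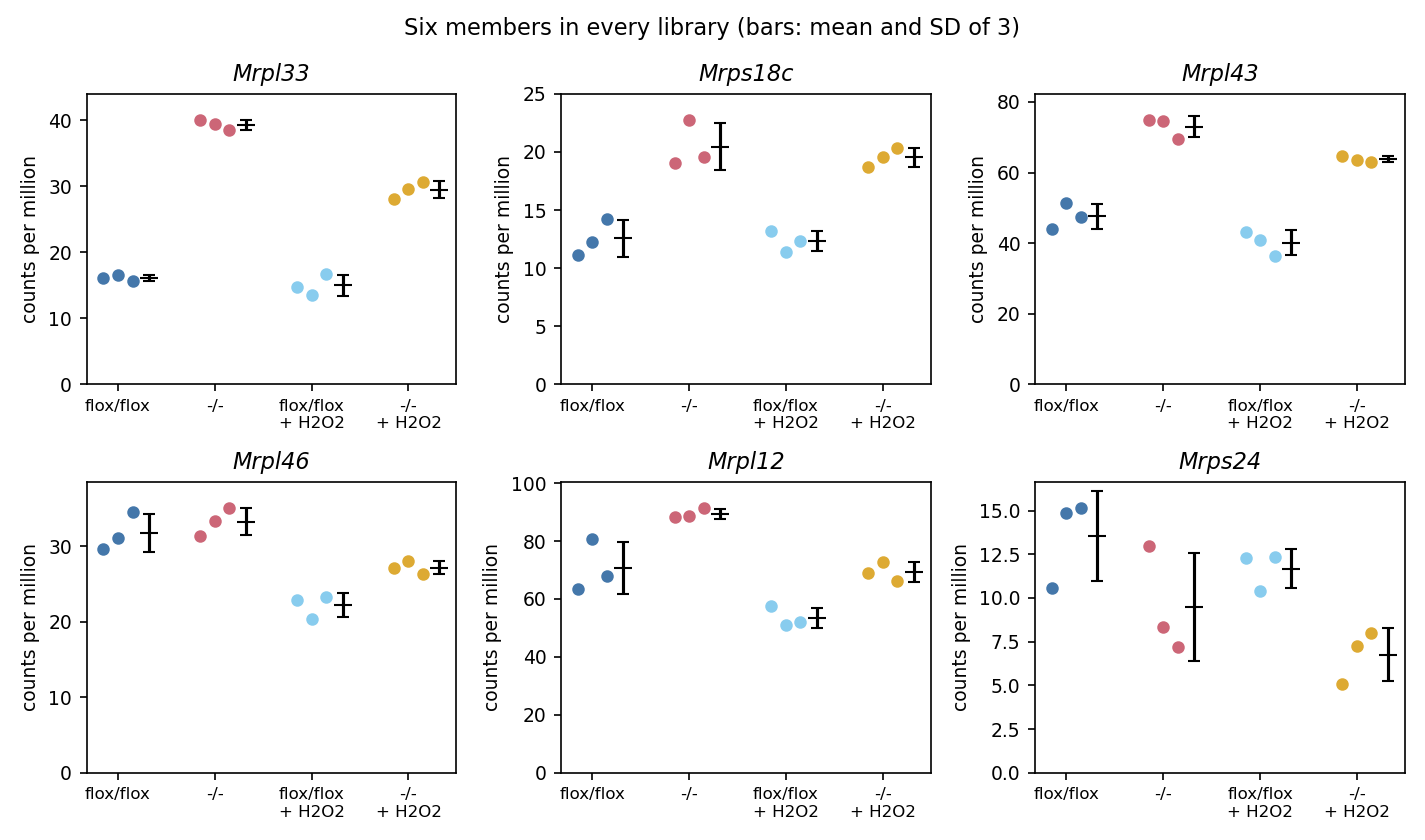
CPM of 6 members in each of 12 libraries, with axes from 0. Points are libraries and black marks the mean and SD of 3. Mrpl33, Mrps18c and Mrpl43 are higher in all -/- than in all flox/flox libraries, Mrpl46 and Mrpl12 are lower with H2O2 in both genotypes, and the untreated groups of Mrps24 overlap.

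To see the genotype differences by location, each member was set beside the median log2 fold change of its 24 nearest tested genes, 12 on each side. In untreated cells the members' values and these neighbour medians had a Pearson correlation of 0.567 over 78 members, as a description across sites that share the libraries, and with H2O2 one of 0.544. In the H2O2 comparisons the correlation was -0.01 in flox/flox and 0.012 in -/- cells. On chromosome 5 the median of 773 tested genes was 0.29 in untreated -/- against flox/flox cells, and its 4 members (Mrpl1, Mrpl33, Mrps17 and Mrps18c) all rose, with a median of 0.70. On chromosome 2 the median of 962 genes was 0.30, and 4 of 4 members were above 0, with a median of 0.31. Chromosome 15 had a median of 0.36 over 474 genes, 79.7% of them above 0, and its 1 member, Mrpl13, differed by 0.40. The neighbours of Mrps18c had a median of 0.52 and those of Mrpl33 of 0.43, with 23 of its 24 neighbours above 0. Mrpl41 on chromosome 2 differed by 0.52 and its neighbours by 0.46. Mrpl43 (0.62), Mrpl36 (-0.67) and Mrps24 (-0.52) had neighbour medians of 0.14, -0.14 and -0.03, of the same sign but smaller. Their chromosomes, 19, 13 and 11, had medians of 0.133, -0.117 and -0.044. Members were above their neighbours in 59 of 78 cases, with a median difference of 0.123. The copy number of these chromosomes in the 2 lines was not measured, and its part in the genotype differences was not tested.

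**Figure D4:**
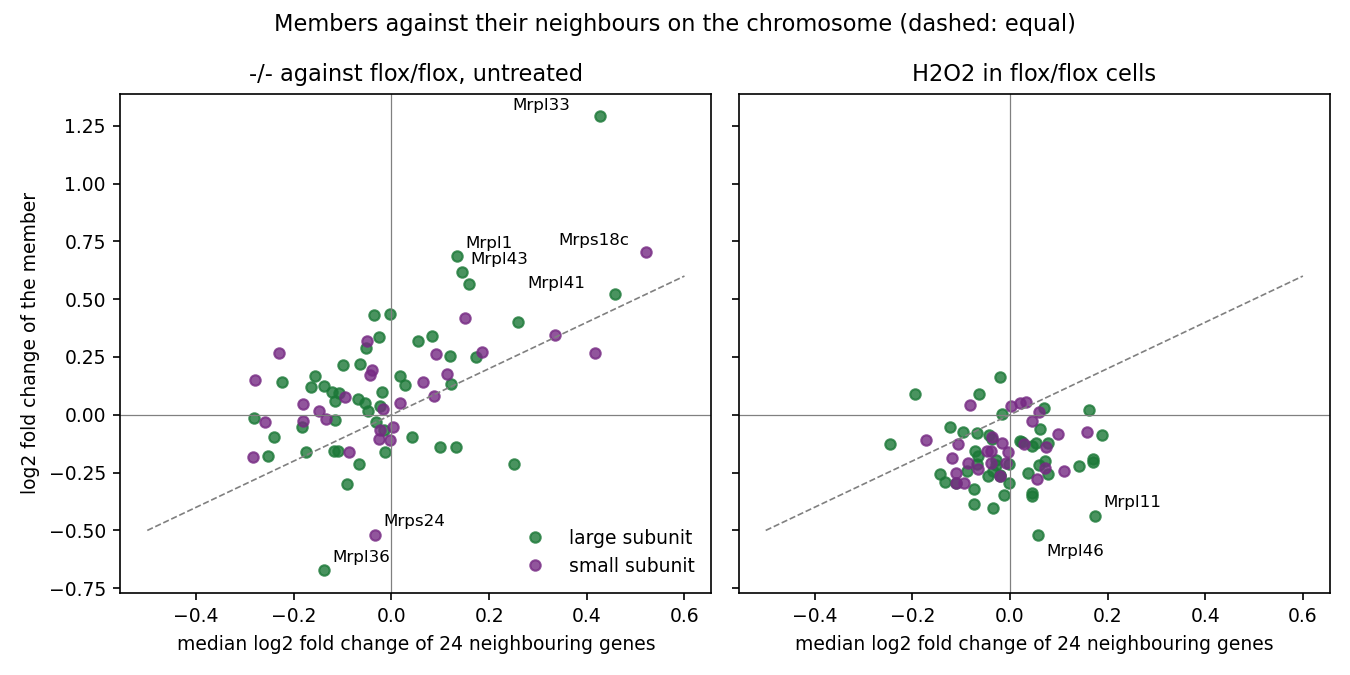
Log2 fold change of each member (y axis) against the median log2 fold change of its 24 neighbouring genes (x axis) for -/- against flox/flox untreated cells (left) and for H2O2 in flox/flox cells (right). Points are members, coloured by subunit, and the dashed line marks equal values. Members with high neighbour medians, such as Mrps18c and Mrpl33, are high on the left, whereas on the right most members lie below the line whatever their neighbours.

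The next question was how the members responded to H2O2 with serum withdrawal. In flox/flox cells 35 members fell and none rose, against 20.5% of all genes that fell and 21.0% that rose. The share of members that fell was 44.9%. Of the large subunit 27 of 49 fell (55.1%) and of the small subunit 8 of 29 (27.6%). The median log2 fold change was -0.19 (large -0.204, small -0.156) against 0.007 over all genes, and 67 members were below 0. The changes were small: no member reached a 1.5-fold change with p under 0.01, against 7.56% of all genes. In 31 members the treated libraries were all below the untreated ones, against 23.3% of all genes. The count rests on single libraries. It was 13 without replicate 2 and 19 without replicate 3 of untreated flox/flox cells, 14 without replicate 2 and 20 without replicate 3 of treated flox/flox cells, and 23 with DESeq2, with no rise in any of them. Without replicate 1 of untreated flox/flox cells it was 34. The share that fell was larger in the large than in the small subunit under each of these (24.5% and 3.45% without untreated replicate 2, for example), and the difference between the subunits was not tested.

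Mrpl46, a mitochondria-specific protein of the large subunit, was the largest fall, from 29.65, 31.17 and 34.52 CPM to 22.92, 20.36 and 23.25 CPM (log2 -0.52 ± 0.08, edgeR adjusted p = 4.95e-06). Its start lies 42 bases from that of Mrps11, a small subunit protein of the mRNA exit region, on the other strand, within the Mrps11 window printed above. Mrps11 went from 20.49, 21.61 and 19.96 CPM to 18.13, 17.44 and 17.37 CPM (log2 -0.23 ± 0.09, edgeR adjusted p = 0.0351). It was chosen after its values were seen. Its call under the alternatives entered the counts over all members but was not followed for this gene by itself. In both genes all treated libraries were below all untreated ones. The Mrps11 transcript overlaps exons of Mrpl46 on the other strand in the annotation, so that reads could be shared. In total 22 members start head to head with another gene, 8 to 332 bases apart, and this is the one pair in which both genes are members.

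Next came Mrpl11 and Mrpl12. Mrpl12, the protein of the stalk, which recruits translation factors, and also known to bind the mitochondrial RNA polymerase, went from 63.48, 80.87 and 68.05 CPM to 57.48, 50.9 and 52.18 CPM (log2 -0.40 ± 0.07, edgeR adjusted p = 5.15e-05). Mrpl11, at the stalk base, went from 36.74, 41.68 and 41.77 CPM to 32.63, 27.98 and 28.07 CPM (log2 -0.44 ± 0.08, edgeR adjusted p = 6.32e-05). Neither group pair overlapped. Mrpl10, which anchors the stalk, did not pass and was at 38.32, 39.5 and 42.58 CPM and at 41.05, 34.29 and 37.98 CPM (log2 -0.09, edgeR adjusted p = 0.381), with overlap. Mrpl36 followed (log2 -0.39 ± 0.11, edgeR adjusted p = 0.00609).

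In -/- cells 26 members fell with H2O2 and none rose, against 19.1% of all genes that fell and 20.5% that rose. The share of members that fell was 33.3%. Of the large subunit 22 of 49 fell (44.9%), and of the small subunit 4 of 29 (13.8%). The median was -0.154 (large -0.185, small -0.116) against 0.018 over all genes, and 65 members were below 0. No member reached the limits of the study, against 7.77% of all genes. In 35 members all treated libraries were below all untreated ones, against 24.7% of all genes. With 1 library left out in turn, 18 to 36 members fell.

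Mrps24 had the most negative value, going from 12.96, 8.313 and 7.172 CPM to 5.054, 7.25 and 7.967 CPM (log2 -0.48 ± 0.18, edgeR adjusted p = 0.0294). Its groups overlapped, and the call was lost without replicate 1 of untreated (adjusted p = 0.392, edgeR) or of treated -/- cells (0.195), with DESeq2 (0.133) and with counts summed over transcripts (0.105). The next members held under every alternative tried. Mrpl47, the counterpart of the bacterial L29 protein beside the tunnel exit, went from 19.83, 19.53 and 19.97 CPM to 13.35, 14.5 and 15.53 CPM (log2 -0.45 ± 0.09, edgeR adjusted p = 0.000247). Mrpl57, mitochondria-specific, went from 22.9, 18.69 and 19.69 CPM to 16.17, 15.45 and 14.16 CPM (log2 -0.42 ± 0.09, edgeR adjusted p = 0.000494). Mrpl33 went from 40.02, 39.39 and 38.51 CPM to 28.09, 29.63 and 30.61 CPM (log2 -0.42 ± 0.07, edgeR adjusted p = 3.16e-05), while in flox/flox cells its log2 fold change was -0.10 (edgeR adjusted p = 0.37). Mrpl12 and Mrpl11 fell in these cells too, Mrpl12 from 88.17, 88.49 and 91.25 CPM to 69.1, 72.91 and 66.14 CPM and Mrpl11 from 43.21, 47.98 and 39.72 CPM to 33.25, 35.34 and 33.13 CPM (both log2 -0.36, edgeR adjusted p = 0.000117 and 0.000388). Mrpl46 fell by 0.29 on the log2 scale (edgeR adjusted p = 0.00269). Mrpl43 fell by 0.24 in flox/flox and by 0.19 in -/- cells (edgeR adjusted p = 0.00677 and 0.0189). Its call in flox/flox cells was lost without untreated replicate 2 (0.0668), without treated replicate 3 (0.0867) and with counts summed over transcripts (0.0698), and that in -/- cells without untreated replicates 1 or 2 (0.0642 and 0.0654) or treated replicates 2 or 3 (0.0532 and 0.0585).

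The 2 H2O2 comparisons share no library. In all, 17 members fell in both, 18 passed in flox/flox cells alone and 9 in -/- cells alone, and 61 were below 0 in both. Of all genes tested, 12% fell in both, 8.58% in flox/flox cells alone and 7.14% in -/- cells alone, and 34.6% were below 0 in both, against 21.8%, 23.1%, 11.5% and 78.2% of the members. Across the 78 members the 2 responses had a Pearson correlation of 0.559, against 0.573 over all genes tested, as a description. When the difference between the responses was tested itself, as the interaction of genotype and treatment, no member passed (edgeR, smallest adjusted p = 0.0718 for Mrpl36, 0.083 for Mrpl33), against 10.2% of all genes. At an unadjusted p under 0.05 there were 3 of the 78 members, against 3079 of 12970 genes tested (edgeR). DESeq2 also called 0 members. Mrpl36, which fell in flox/flox cells and had a log2 fold change of 0.07 in -/- cells, passed without replicate 1 of untreated flox/flox (difference 0.50, edgeR adjusted p = 0.0398) and without replicate 2 of treated -/- cells (0.56, adjusted p = 0.0367, edgeR). Mrpl33 passed without replicate 2 of treated flox/flox cells (difference -0.40, edgeR adjusted p = 0.0368).

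**Figure D5:**
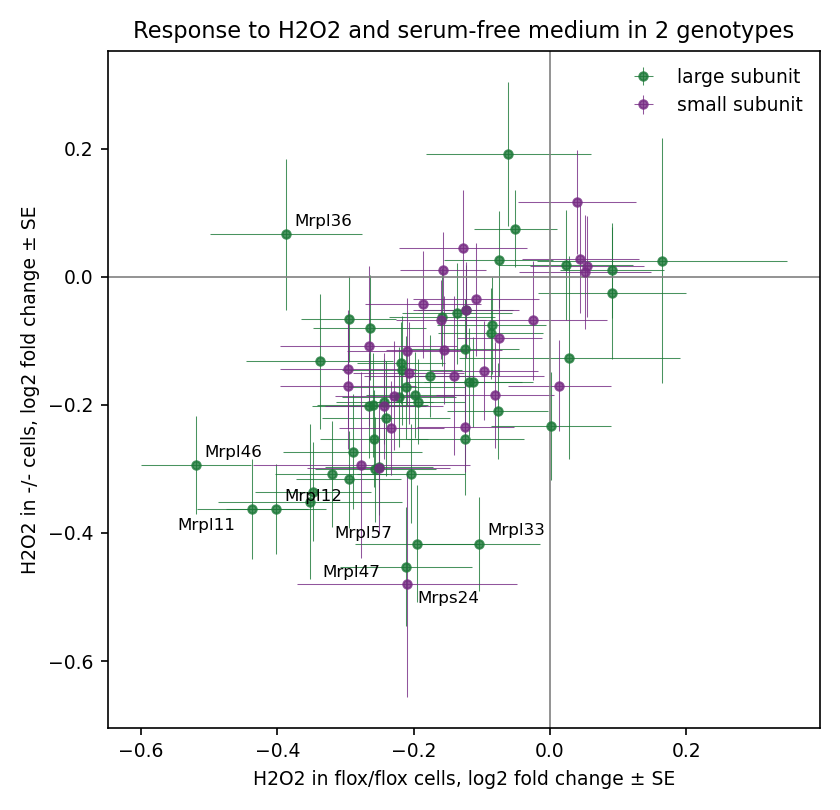
Log2 fold change with H2O2 in flox/flox cells (x axis) against that in -/- cells (y axis) for the 78 members, with SE bars, coloured by subunit. Of the points, 61 lie below 0 in both genotypes, at the lower left. Mrpl46 is farthest left (-0.52) and Mrps24 lowest (-0.48).

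The members also divide into those with a counterpart in the bacterial ribosome and those found only in mitochondria. In flox/flox cells with H2O2, 17 of 30 large subunit members with a bacterial counterpart fell and 10 of 19 without one, and 5 of 16 and 3 of 10 in the small subunit. In -/- cells these counts were 14 of 30, 8 of 19, 1 of 16 and 3 of 10. In untreated -/- against flox/flox cells, 9 of 30, 8 of 19, 6 of 16 and 2 of 10 rose. The shares of all genes were 20.5%, 19.1% and 33.3% in these 3 comparisons, and no difference between classes was tested.

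Members with a role beyond the core of the ribosome, or linked to disease, gave the following. Mrpl58, a peptidyl-tRNA hydrolase that rescues stalled ribosomes, had a log2 fold change of -0.34 with H2O2 in flox/flox cells (edgeR adjusted p = 0.0119), lost without replicates 2 or 3 of untreated (adjusted p = 0.0702 and 0.0689, edgeR) and replicate 2 of treated flox/flox cells (0.0699). Mrpl44, which has an RNase III fold, passed only in treated -/- against treated flox/flox cells (log2 0.31, edgeR adjusted p = 0.0176), and not without treated flox/flox replicates 1 or 2 (0.152 and 0.0604), without treated -/- replicate 3 (0.0961) or with counts summed over transcripts (0.0706). Mrpl45, at the tunnel exit facing the inner membrane, was higher in treated -/- than treated flox/flox cells, with 37.4, 37.29 and 36.62 CPM against 30.52, 28.39 and 28.27 CPM (log2 0.35 ± 0.08, edgeR adjusted p = 0.00019), with no overlap. Untreated, it rose by 0.25, a call lost without replicate 1 of untreated flox/flox cells (edgeR adjusted p = 0.0768). Mrpl41, also described as a partner of p53 in growth arrest and apoptosis, was at 16.19, 21.42 and 20.7 CPM in untreated flox/flox and at 24.83, 31.13 and 27.64 CPM in untreated -/- cells (log2 0.52 ± 0.09, edgeR adjusted p = 1.39e-05), and rose by 0.54 with H2O2 as well. Its falls with H2O2 (log2 -0.29 in flox/flox and -0.27 in -/- cells, edgeR adjusted p = 0.0221 and 0.0167) were lost without replicates 2 or 3 of either flox/flox group (0.0559 to 0.148), without untreated -/- replicate 2 (0.151), treated -/- replicate 3 (0.0662) and with counts summed over transcripts (0.06 and 0.0511). Mrpl10 rose in -/- cells by 0.44 in both genotype comparisons (edgeR adjusted p = 5.47e-06 untreated), with no overlap.

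Among small subunit members, Mrps2, the counterpart of the bacterial S2 protein, was at 44.15, 47.62 and 47.62 CPM in treated flox/flox and at 59.69, 59.36 and 57.71 CPM in treated -/- cells (log2 0.34 ± 0.06, edgeR adjusted p = 1.16e-05), with no overlap, and rose by 0.18 without treatment. With H2O2 in flox/flox cells its log2 fold change was -0.16 (edgeR adjusted p = 0.0438), a call lost in 15 of the 19 alternatives, among them without any 1 of the 6 libraries compared (adjusted p = 0.0597 to 0.207, edgeR). Mrps16 rose in treated -/- cells as well (log2 0.42, edgeR adjusted p = 0.0003). Its rise of 0.27 without treatment was lost without untreated flox/flox replicate 1 or untreated -/- replicate 2 (edgeR adjusted p = 0.176 and 0.12), and its log2 fold change of -0.30 with H2O2 in flox/flox cells without untreated replicates 2 or 3 or treated replicate 2 (0.079, 0.146 and 0.0666). Mrps12, the protein of the decoding centre, did not pass in any comparison, with group means of 18.19, 18.5, 16.84 and 18.05 CPM in untreated flox/flox, untreated -/-, treated flox/flox and treated -/- cells. Mrps22, mutated in mitochondrial disease, had group means of 17.97, 17.74, 15.12 and 14.37 CPM in that order. Its value with H2O2 was -0.25 in flox/flox (edgeR adjusted p = 0.0536) and -0.30 in -/- cells (edgeR adjusted p = 0.0203), the latter lost without untreated replicate 1 (0.0913) or treated replicates 1 or 3 of -/- cells (0.0991 and 0.065). Mrps34, also a disease gene, differed by 0.26 between the untreated genotypes (edgeR adjusted p = 0.00602), lost without untreated -/- replicate 1 (0.0668). It overlaps Nme3 on its own strand, so that reads could be shared.

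The members include 3 homologues of bacterial S18. Mrps18c rose in -/- cells in both genotype comparisons and had log2 fold changes of -0.02 and -0.07 with H2O2. Mrps18a, which sits in the large subunit, was at 13.7, 15.65 and 15.62 CPM in untreated flox/flox and 19.35, 18.24 and 18.54 CPM in untreated -/- cells (log2 0.32 ± 0.09, edgeR adjusted p = 0.00352). With H2O2 the genotypes differed by 0.28, a call lost without treated flox/flox replicate 3 or treated -/- replicate 2 (edgeR adjusted p = 0.0799 and 0.0687). Mrps18b passed only with H2O2 in flox/flox cells (log2 -0.24, edgeR adjusted p = 0.0234), and not without untreated replicates 1 or 3 (0.129 and 0.0585), treated replicates 1 or 3 (0.145 and 0.0767) or with DESeq2 (0.0514). Mrps30, the other Mrps gene whose protein is part of the large subunit, had adjusted p of 0.0561 to 0.719 in the 4 comparisons (edgeR). Mrps36, also known as a part of the 2-oxoglutarate dehydrogenase complex, was at 8.274 to 13.33 CPM and passed in no comparison. With Mrps18a and Mrps30 counted in the large subunit, 27 of 51 large subunit members fell with H2O2 in flox/flox cells and 22 of 51 in -/- cells.

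Per kilobase of transcript, Mrps21 (84.7 CPM per kb), Mrps6 (67.2) and Mrpl42 (65.4) had the highest levels over all libraries, and Mrpl48 (1.22), Mrpl23 (1.35) and Mrps14 (4.26) the lowest. Of these, Mrpl42 went from 43.59, 47.2 and 47.72 CPM to 35.49, 39.82 and 37.51 CPM with H2O2 in flox/flox cells (log2 -0.30 ± 0.07, edgeR adjusted p = 0.000977), with a log2 fold change of -0.07 in -/- cells. Mrps6 shares its strand and exons with Slc5a3, so that its level is uncertain. Mrpl48 and Mrps14 passed in no comparison. Over the set, 49 members overlap another gene, 6 of them on the same strand, and 4 have annotated pseudogenes. Mrpl23 and Mrpl48 are among these 4. The part of pseudogenes and of the choice of transcript in the levels per kilobase was not tested.

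Other genes of mitochondrial translation are given by list, and their differences from the members were not tested. With H2O2, 20.5% of all genes fell and 21.0% rose in flox/flox cells, and 19.1% fell and 20.5% rose in -/- cells. Between the genotypes 33.3% of all genes rose and 31.4% fell untreated, and 35.1% rose and 31.3% fell with H2O2. Of 5 mitoribosomal proteins under other names, Chchd1 fell with H2O2 in both genotypes (log2 -0.39 in flox/flox and -0.41 in -/- cells, edgeR adjusted p = 0.000195 and 4.68e-05) and Gadd45gip1 in flox/flox cells (-0.25). In untreated -/- against flox/flox cells Chchd1 (0.39) and Gadd45gip1 (0.20) rose, while Dap3 (-0.29), a GTP-binding protein of the small subunit, and Ptcd3 (-0.23) fell. With H2O2 3 of the 5 rose and 2 fell between the genotypes, led by Chchd1 (0.36), Gadd45gip1 (0.31), Dap3 (-0.32) and Ptcd3 (-0.32). Of 26 assembly and rRNA modification factors, 2 rose (the RNA-binding Fastkd2, 0.42, and the GTPase Gtpbp6, 0.31) and 1 fell (the rRNA methyltransferase Tfb1m, -0.33) with H2O2 in flox/flox cells. In -/- cells 1 of the 26 fell (Rcc1l, -0.27). Between the untreated genotypes 7 of the 26 rose, led by Gtpbp6 (0.67) and Mtg2 (0.44), and 6 fell, led by Mrm2 (-0.72) and Nsun4 (-0.48). With H2O2 5 rose, led by Gtpbp6 (0.35) and Ngrn (0.32), and 6 fell, led by Ddx28 (-0.64) and Nsun4 (-0.58). Of 16 translation factors, 4 fell with H2O2 in flox/flox cells, led by Mtrfr (-0.36) and the elongation factor Tsfm (-0.27), and 1 in -/- cells (Tsfm, -0.30). Between the genotypes 2 of the 16 rose and 2 fell untreated, and 2 rose and 3 fell with H2O2. The recycling factor Mrrf (0.51 and 0.53) and Mtrfr (0.29 and 0.53) rose in these comparisons. The initiation factor Mtif3 (-0.46 and -0.41) and the methionyl-tRNA formyltransferase Mtfmt (-0.56 and -0.31) fell. No rows for the 2 mitochondrial rRNAs were analysed here.

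Cytosolic ribosomal proteins, which build the ribosome that makes the mitoribosomal proteins themselves, had more and larger falls. Of 85 tested, 82 fell and 1 rose with H2O2 in flox/flox cells, with a median of -0.34, and 64 fell and 0 rose in -/- cells, with a median of -0.26. These falls were 96.5% and 75.3% of the genes tested in this list, against 20.5% and 19.1% of all genes. Of all genes 21.0% and 20.5% rose, with medians of 0.007 and 0.018. Rpl35 (-0.68) and Rps2 (-0.66) led in flox/flox and Rps2 (-0.61) and Rpl38 (-0.60) in -/- cells. Between the genotypes 36 rose and 10 fell untreated (median 0.10) and 46 rose and 4 fell with H2O2 (median 0.20). Untreated, this is 42.4% and 11.8%, against 33.3% and 31.4% of all genes (median 0.008). With H2O2 it is 54.1% and 4.71%, against 35.1% and 31.3% of all genes (median 0.018). Rpl21 fell in both (-0.64 and -0.49), followed by Rpl23a untreated (-0.37) and Rpl13 with H2O2 (-0.32), and Rpl5 (0.75) led the rises of ribosomal subunits with H2O2. The symbol rule for this list also takes Rps23rg1, a retroposed copy of Rps23 (1.38 with H2O2 in flox/flox cells, 2.32 and 1.12 between the genotypes), and Rps19bp1 (0.66 untreated), which is no ribosomal subunit.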

How the data were processed

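RNA of 12 samples was sequenced (TruSeq stranded mRNA, NovaSeq). The authors trimmed reads with fastp, aligned them with STAR to GRCm38.p6 with GENCODE annotation, and deposited whole-number counts per transcript from featureCounts, whose strand and overlap settings are not given in the sources used here. Transcripts summed to 51387170 to 69231661 counts per library, more than the reads of genes, since transcripts of a gene share reads.

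Of 106332 transcripts, 104820 were matched by Ensembl identifier to a gene, and the 1512 others (1.22% to 1.28% of counts) were left out. Each gene was given its transcript with the highest total. For 68 members this is annotated as coding. edgeR 4.0.16 (R 4.3.3) was fitted to all 12 libraries with 1 mean per group (filterByExpr, TMM, glmQLFit, glmQLFTest), and p-values were adjusted by Benjamini-Hochberg over 12970 genes. CPM are TMM-normalized, and lengths and start sites are from the annotations in GRCm39 and GRCm38.p6. DESeq2 1.42.0 was an alternative, beside other scalings, filters, the replicate block, summed transcripts, fits of the compared groups alone and fits without each library. Tests were checked on simulated counts. For work in culture the methods of the study give at least 3 repeats as a general rule, independent or biological, while the labels do not say how these libraries are related, so that p-values measure the spread between these libraries, which may be technical, and all libraries differed by more than sampling noise. Replicate numbers did not pair the samples: none of 18 correlations of deviations between same-numbered libraries was over 0.1 (-0.101 to 0.0584). The labels give H2O2 as 200 mM and the methods in micromolar, and also differ on the RNA kit.

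The members and lists were chosen with earlier results of these data known. Named were members with a described role, the 4 largest called rises and falls of each comparison and all past 1.5-fold, those called in the interaction (0), the 3 highest and 3 lowest levels per kilobase, members that failed the expression filter (0), and the 2 largest called changes each way of the other lists, of which 1 is not reported here.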

Additional observations from a re-analysis of the deposited data

How the results depend on the processing

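No called member changed direction under any alternative tried, and no named member's called value did. Counts of calls moved by over 1.5 times under the limits of the study (5 members in each genotype comparison and 0 in each H2O2 comparison) and, for H2O2 in flox/flox cells, with DESeq2 (23 against 35). With the replicate block, which stands on numbers that did not pair the samples (the best match had the same number in 9 of 36 cases), 31 and 34 members were called between the genotypes untreated and with H2O2, 33 and 25 with H2O2 in flox/flox and -/- cells, and 0 in the interaction. With 1 library left out, the calls ranged from 26 to 33 and from 28 to 37 between the genotypes, from 13 to 34 and from 18 to 36 for H2O2, and from 0 to 1 in the interaction, and 69.2% to 78.2% of members were called in some of the 4 comparisons (76.9% with all libraries, against 86.4% of all genes tested). Of the called members, 19, 23, 8 and 13 stayed called without each library in the 4 comparisons in that order.

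The large minus small subunit median (log2) was 0.0225 and -0.0334 between the genotypes untreated and with H2O2, -0.0483 and -0.0682 for H2O2 in flox/flox and -/- cells, and -0.0284 for the interaction. With 1 library left out these ranged from -0.00319 to 0.0383, -0.0822 to -0.0261, -0.0706 to -0.0287, -0.0917 to -0.0481 and -0.0383 to 0.0346. The pooled SD of this difference between libraries of a group was 0.0203. With Mrps18a and Mrps30 in the large subunit the value for H2O2 in -/- cells was -0.0287, and with counts summed over transcripts the interaction value was 0.0117. Summed over transcripts, the large subunit was at 1407, 1522, 1245 and 1332 CPM in untreated flox/flox, untreated -/-, treated flox/flox and treated -/- cells, and the small subunit of the last 3 at 867.1, 733.1 and 793.6 CPM. The cause of these changes was not tested. DESeq2 size factors moved the median of all genes by at most 0.0144. There were 3 libraries a group and a median of 466.5 counts per member, with counts as low as 66. The common coefficient of variation beyond counting, as estimated by edgeR over all genes tested, was 5.5%. The parts of counting and of the spread between libraries in the precision of the members were not separated.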

Other observations

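Mitochondrial aminoacyl-tRNA synthetases charge the tRNAs that the mitoribosome uses. Of 17, 1 fell and 0 rose with H2O2 in flox/flox cells (Lars2, log2 -0.17, edgeR adjusted p = 0.049), against 20.5% of all genes that fell and 21.0% that rose, and 2 rose (Wars2, 0.31, and Cars2, 0.29) and 5 fell in -/- cells, led by Ears2 (-0.37) and Nars2 (-0.34), against 20.5% that rose and 19.1% that fell. Between the genotypes 2 rose and 5 fell untreated, led by Vars2 (0.76), Wars2 (-0.55) and Aars2 (-0.34), and 3 rose and 5 fell with H2O2, led by Fars2 (0.34), Pars2 (0.32), Ears2 (-0.60) and Mars2 (-0.46). The shares of all genes here were 33.3% risen and 31.4% fallen untreated, and 35.1% risen and 31.3% fallen with H2O2. In the interaction of genotype and treatment, which 10.2% of all genes passed, 3 of the 17 did, all more negative in -/- cells, led by Ears2 (-0.71, edgeR adjusted p = 0.0233) and Vars2 (-0.44, edgeR adjusted p = 0.00546). Of the assembly factors, Gtpbp6 passed it as well (-0.32, edgeR adjusted p = 0.0442).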
